A study of Homo sapiens with 12 samples.

Results

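RNA of SZ95 sebocytes treated with PGN and RVT (3 libraries) was compared with RNA of the same cells treated with PGN alone (3 libraries). SZ95 is an immortalised line of human sebaceous gland cells, which in skin make sebum. The comparison covers every gene averaging 1 TPM or more over these 6 libraries, which is 14622 of the 60666 genes in the deposited table. TPM corrects expression for transcript length and library total, so it can be compared between genes but holds no record of sequencing depth. The 6 libraries belong to a study of 12, whose other 6 hold cells treated with LA and cells treated with LA and RVT, again 3 of each. The series title gives RVT as resveratrol and names inflammation, lipid accumulation and AMPK signalling as the questions of the study. The labels leave PGN and LA as abbreviations, taken here to mean peptidoglycan and linoleic acid. Every group received a stimulus and there is no untreated group, so what PGN alone did to these cells cannot be read from the libraries. Doses and times are not given in the sources used here, and all libraries come from a single cell line.

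Peptidoglycan is the mesh of the bacterial cell wall. Cells sense it and its fragments through the surface receptor TLR2 and the cytosolic receptors NOD1 and NOD2, which switch on the transcription factor NF-kB and MAP kinases and, through them, cytokine and chemokine genes. Sebocytes answer bacterial products in this way, and inflammation around the sebaceous gland is a feature of acne. Resveratrol is a plant polyphenol with many described protein targets, among them the aryl hydrocarbon receptor, which it antagonises, and pathways that converge on the energy sensor AMPK.

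The 6 columns summed to between 994373 and 996005 TPM, and 14489 to 14675 genes reached 1 TPM in a library. On the first principal component, which held 36.7% of the variance, the 3 PGN libraries lay on 1 side and the 3 PGN+RVT libraries on the other. PGN+RVT replicate 2 stood apart from the other PGN+RVT libraries, at 35.9 on that axis against 12.3 and 14.2. On the second component (19.8% of the variance) it stood at 24.95 against -16.54 and -23.83. PGN+RVT replicates 1 and 3 had lowest correlations within their group of 0.97547 and 0.97421. Their highest with a PGN library were larger, at 0.97754 and 0.97646. Counts without PGN+RVT replicate 2 are given for lists below with more than 5 genes called in a direction where leaving it out moved that count by over 1.5 times, and smaller counts often moved by 1 to 3 genes. Of 20 sebocyte markers 12 were tested, and 4 of them rose and 2 fell, against 10.6% and 4.92% of all tested genes. KRT7, a keratin of glandular epithelium, stood at 1687, 1820.4 and 1751 TPM with PGN and 1718, 1668 and 1632 TPM with RVT (adjusted p = 0.273), while AWAT2 and MC5R, genes of late sebaceous differentiation, were listed at 0 in each of these libraries. Of 17 immune cell markers 5 were listed at 0 in each library, and the summed level of the 17 was 2.88 to 3.80 TPM with PGN and 1.78 to 2.95 TPM with RVT. Summed fibroblast markers stood at 80.3 to 96.9 TPM with PGN and 99.2 to 102 TPM with RVT, mostly from FBLN1. Summed endothelial markers stood at 32.2 to 34.2 and 29.8 to 31.9 TPM, and summed melanocyte markers at 72.8 to 74.3 and 82.9 to 90.6 TPM. Neuronal and Schwann cell markers summed to 51.3 to 60.6 TPM with PGN and 76.5 to 86.4 TPM with RVT, nearly all from the tubulin gene TUBB3, which rose (log2 change 0.56 ± 0.084, adjusted p = 0.00621). The part of these marker genes in the results below was not tested. In bulk RNA, fewer cells of a type and less RNA per cell cannot be told apart.

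Of the 12 protein-coding genes that fell most with RVT, 10 encode cytokines or chemokines, and rises were more numerous but smaller. At an adjusted p under 0.05 (limma, Benjamini-Hochberg over all 14622 genes; "called" below) 1557 genes were higher with RVT (10.6%) and 720 lower (4.92%), together 2277 (15.6%). Changes of at least 2-fold went the other way in number, with 28 genes higher (0.191%) and 83 lower (0.568%). Log2 changes are of TPM + 1, so changes of genes with few TPM are understated, and their error is the standard error of the fit. The median log2 fold change of the tested genes was 0.064, a value that other library scalings brought to between 0.0054 and 0.038. The excess of higher genes depended on that scaling: of the called genes 68.4% were higher as deposited, 45.5% with library medians equalised, 50.9% after quantile normalization and 48.2% with a GC and length trend removed. The total was 1236 without PGN replicate 2 and 1095, 1174 and 1201 without PGN+RVT replicates 1, 2 and 3, against 1857 and 1861 without PGN replicates 1 and 3. Of the 83 genes at least 2-fold lower, 77 were called in each of the alternatives run, and of the 28 at least 2-fold higher, 18. For 3612 tested genes (24.7%) every PGN+RVT library lay above every PGN library, and for 1669 (11.4%) below. The 10.6% called higher and 4.92% called lower among all genes are the shares to set beside each list count.

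**Figure D1:**
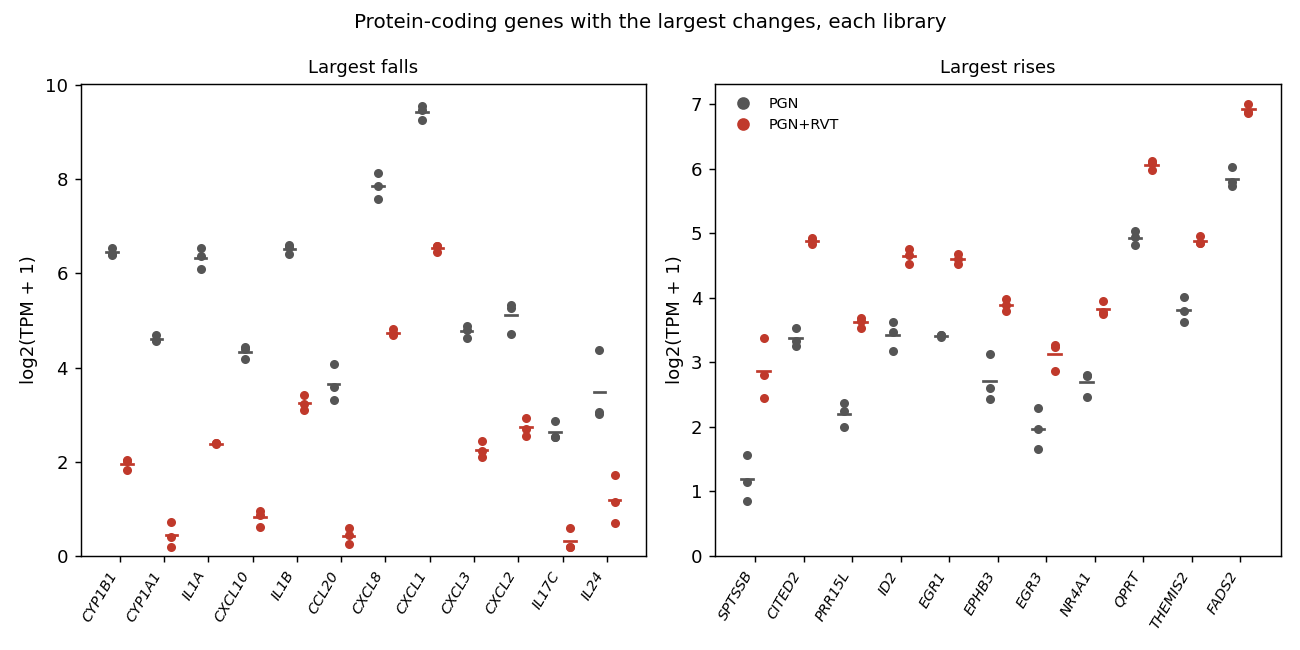
The 12 protein-coding genes with the largest falls (left) and 11 with the largest rises (right) among called genes that reach 5 TPM in their higher group and whose groups do not overlap, in log2(TPM + 1). Each point is 1 library, grey for PGN and red for PGN with RVT, and bars are means of 3 libraries. Falls reach 4.49 log2 units in CYP1B1, and rises reach 1.69 in SPTSSB.

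On the log2(TPM + 1) scale no protein-coding gene fell further than CYP1B1 (chromosome 2, 38066973 to 38109902 on GRCh38). CYP1B1 encodes a cytochrome P450 enzyme that ligands of the aryl hydrocarbon receptor induce. It stood at 91.5, 82.4 and 84.7 TPM with PGN and at 3.08, 2.56 and 3.02 TPM with RVT. The groups lay far apart, with a mean 29.9 times as high without RVT (log2 change -4.49 ± 0.0799, adjusted p = 1.05e-06). CYP1A1, the best known target gene of that receptor (chromosome 15, 74719542 to 74725610), stood at 22.9, 22.7 and 24.8 TPM with PGN and 0.15, 0.65 and 0.33 TPM with RVT (log2 change -4.17 ± 0.15, adjusted p = 1.72e-05). By the plain ratio of means, CYP1A1 (62.3 times as high without RVT) and the chemokine gene CCL20 (33.4 times) fell further than CYP1B1. Each PGN+RVT library of CYP1A1 and CCL20 was under 1 TPM, so these ratios are less certain. TIPARP, an ADP-ribosyltransferase that the receptor induces and that feeds back on it, fell from 52.5 ± 6.06 to 18.3 ± 0.894 TPM (SD, n = 3, as throughout), a log2 change of -1.47 ± 0.0903 (adjusted p = 0.000217). Of the 8 tested genes of the aryl hydrocarbon receptor list, these 3 fell, NQO1 rose and 4 were not called. NQO1, a quinone reductase that NRF2 also induces, rose from 208 ± 12.5 to 269.5 ± 16.6 TPM. AHR, the receptor itself, stood at 26.9, 23.8 and 20.8 TPM with PGN and 26.3, 23.9 and 24.7 TPM with RVT, and the groups overlapped (adjusted p = 0.662). CYP1B1-AS1, chosen after its values were seen, overlaps CYP1B1 on the other strand and changed by -1.59 ± 0.17 (adjusted p = 0.00188); the strand setting of the counting is unknown.

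Chemokine genes, whose products draw neutrophils and lymphocytes, fell as a group. Of 11 tested chemokines 9 fell and 1 rose, against 4.92% and 10.6% of all genes, and the median log2 fold change was -2.38. The 9 were called lower in each alternative that tested them, also without PGN+RVT replicate 2. The neutrophil chemokines CXCL8, CXCL1, CXCL3 and CXCL2 lie in a cluster of chemokine genes on chromosome 4 (between 73740506 and 74099293). CXCL1 was the most abundant of the chemokines with PGN. The core promoters of the 3 paralogs are printed here because they share a match to the NF-kB consensus in the same place. Each stretch runs from 150 bases before to 50 bases after the RefSeq start (GRCh38.p14, with chr4:73869243-73869442 on the plus strand for CXCL1, and chr4:74099146-74099345 and chr4:74038640-74038839 on the minus strand for CXCL2 and CXCL3). Capitals mark the match, which holds 2 overlapping copies of the consensus, and the TNFAIP3 stretch that follows (chr6:137867109-137867308, plus strand) has 2 separate copies.
CXCL1: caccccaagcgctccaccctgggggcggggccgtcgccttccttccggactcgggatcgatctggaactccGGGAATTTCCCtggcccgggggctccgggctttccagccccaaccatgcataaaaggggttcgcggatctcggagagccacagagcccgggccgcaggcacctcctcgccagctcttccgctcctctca
CXCL2: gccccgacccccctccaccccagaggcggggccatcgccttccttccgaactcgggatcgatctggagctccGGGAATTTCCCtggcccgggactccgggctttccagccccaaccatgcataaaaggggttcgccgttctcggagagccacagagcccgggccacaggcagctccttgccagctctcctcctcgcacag
CXCL3: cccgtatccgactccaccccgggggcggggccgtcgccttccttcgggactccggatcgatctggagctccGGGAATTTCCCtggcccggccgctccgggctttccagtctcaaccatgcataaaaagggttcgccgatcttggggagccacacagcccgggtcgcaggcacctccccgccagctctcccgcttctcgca
TNFAIP3: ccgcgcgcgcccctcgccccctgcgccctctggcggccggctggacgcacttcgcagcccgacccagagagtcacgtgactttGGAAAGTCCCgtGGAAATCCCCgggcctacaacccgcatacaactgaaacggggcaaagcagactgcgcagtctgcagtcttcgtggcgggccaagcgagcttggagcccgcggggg

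The first copy began 79, 78 and 79 bases before the start of CXCL1, CXCL2 and CXCL3, and 67 bases before that of TNFAIP3. In promoters of 250 bases before to 50 bases after the start, searched on both strands, 8 of the 9 chemokines that fell held the consensus (88.9%), with CXCL8 the exception. For CXCL8 this says only that no exact match is in the window, since variants of the consensus were not searched for. The consensus is given by its name, since its letters include ambiguity codes. Of 10285 tested genes with a promoter in the RefSeq table, 8.99% held it, and 7.09% of all 27305 genes listed there. A match is a description of the letters and not evidence of binding.

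CXCL1 stood at 753, 705 and 614 TPM with PGN and 95.1, 94.3 and 86.4 TPM with RVT. The lowest PGN library was far above the highest PGN+RVT library (log2 change -2.89 ± 0.079, adjusted p = 5.63e-06). CXCL8, the main human neutrophil attractant, stood at 277, 231 and 191 TPM with PGN and 27.1, 24.9 and 25.5 TPM with RVT. Its PGN libraries spread more widely than its PGN+RVT libraries, and the mean was 9.02 times as high without RVT (log2 change -3.11 ± 0.12, adjusted p = 2.44e-05). CXCL10, which attracts T cells, fell from 19.3 ± 1.896 to 0.773 ± 0.218 TPM (log2 change -3.52 ± 0.13). CCL20, the ligand of CCR6 on dendritic cells and Th17 cells, fell from 11.9 ± 3.52 to 0.357 ± 0.1604 TPM (log2 change -3.22 ± 0.21). CXCL3 fell from 26.4 ± 2.44 to 3.803 ± 0.572 TPM and CXCL2 from 34.1 ± 7.57 to 5.68 ± 0.899 TPM. CXCL1, CXCL2 and CXCL3 are similar in sequence, so reads could be split between them and their separate values are less certain than their sum. The other falls, CXCL11, CXCL6 and CXCL5, had log2 fold changes of -1.72 ± 0.13, -1.47 ± 0.11 and -1.06 ± 0.17. CXCL16, a membrane-bound chemokine, was higher with RVT (65.8 ± 1.89 and 76.3 ± 2.39 TPM, adjusted p = 0.02801), a call kept in 6 of 16 alternatives. These last 4 were named after their values were seen. CCL28 was not called (adjusted p = 0.672).

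**Figure D2:**
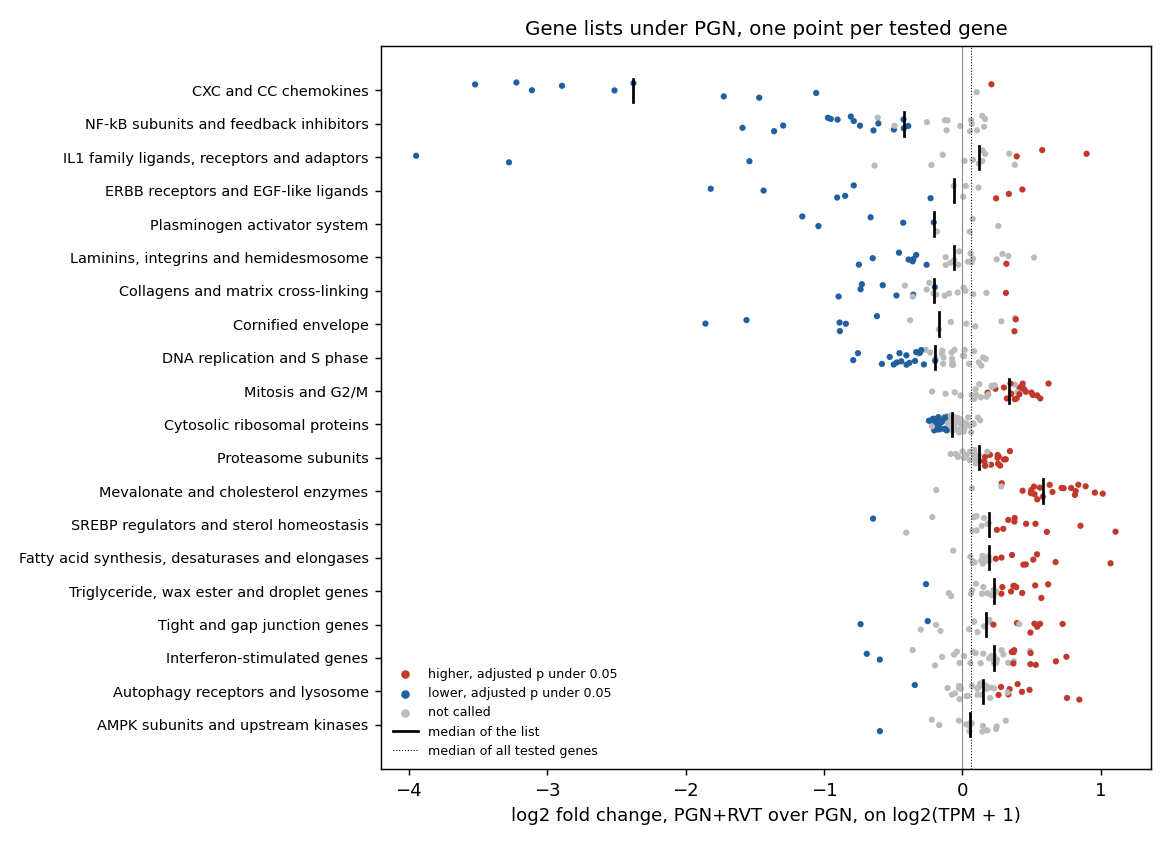
Log2 fold change of PGN with RVT over PGN for every tested gene of 20 gene lists, 1 point per gene. Red points are called higher, blue points called lower and grey points not called. Black bars are list medians and the dotted line is the median of all tested genes (0.064). Chemokines have the lowest median (-2.38) and the enzymes of cholesterol synthesis the highest (0.58) of the lists drawn.

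Both interleukin 1 agonists fell while their natural antagonist rose. IL1A stood at 91.9, 81.6 and 66.9 TPM with PGN and 4.25, 4.17 and 4.25 TPM with RVT (log2 change -3.95 ± 0.11, adjusted p = 5.73e-06). IL1B stood at 92.95, 96.3 and 83.7 TPM with PGN and 9.63, 8.36 and 7.58 TPM with RVT (log2 change -3.27 ± 0.094, adjusted p = 5.73e-06). IL1A and IL1B lie next to each other on chromosome 2 (112773915 to 112784590 and 112829751 to 112836903), and neither showed overlap between groups. IL1RN, the receptor antagonist, stood at 47.4, 46.8 and 49.3 TPM with PGN and 69.97, 70.5 and 75.1 TPM with RVT (log2 change 0.58 ± 0.051, adjusted p = 0.000832). Its PGN+RVT libraries lay above each PGN library. IRAK2, a kinase of the receptor complex, fell from 22.9 ± 0.342 to 7.22 ± 0.275 TPM (adjusted p = 3.42e-05). Of 17 tested genes of the interleukin 1 family and its receptors, 3 fell and 3 rose, each in every alternative run. The other rises were IL1RL1, the receptor of interleukin 33 (log2 change 0.90 ± 0.13), and IL18 (0.39 ± 0.069), both named after their values were seen. IRAK1 was not called (292 ± 29.2 and 327 ± 5.78 TPM, adjusted p = 0.168).

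Among cytokine, receptor and signalling genes of the interleukin 6, 17 and 20 families, 5 of 25 tested genes fell, against 4.92% of all genes. Another 3 rose, close to the 10.6% of all genes. IL6 stood at 119, 109 and 101 TPM with PGN and 41.8, 37.6 and 40.4 TPM with RVT, with no overlap (log2 change -1.44 ± 0.073, adjusted p = 8.64e-05). LIF, another cytokine that signals through gp130, fell from 92.9 ± 4.29 to 55.6 ± 1.11 TPM. IL17C, an epithelial cytokine that acts on epithelium, stood at 4.77, 4.77 and 6.27 TPM with PGN and 0.52, 0.14 and 0.14 TPM with RVT (log2 change -2.31 ± 0.19, adjusted p = 0.000529). IL24, of the interleukin 20 family, stood at 19.8, 7.08 and 7.34 TPM with PGN and 2.28, 1.23 and 0.63 TPM with RVT (log2 change -2.29 ± 0.41, adjusted p = 0.0118). PGN replicate 1 was well above the other PGN libraries for IL24, a gene picked by a rule that asks for groups that do not overlap. IL20RB, a receptor subunit for this family, fell by 0.66 on the log2 scale. The 5 falls were called in each alternative that tested them, and the 3 rises were 0 without PGN+RVT replicates 1 or 2 and 1 without a filter on low genes or without PGN replicates 1 or 3. OSMR, the oncostatin M receptor, was not called (120.1 ± 7.23 and 106 ± 3.498 TPM, adjusted p = 0.0714).

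Outside the lists, 3 colony-stimulating factor genes fell at least 2-fold and were chosen after their values were seen. CSF2, which encodes GM-CSF, fell from 32.9 ± 4.2 to 11.5 ± 2.06 TPM (log2 change -1.45 ± 0.14). CSF3, which encodes G-CSF, fell from 5.24 ± 0.318 to 0.66 ± 0.365 TPM (log2 change -1.93 ± 0.18), and CSF1, the macrophage factor, from 14.5 ± 1.19 to 5.28 ± 0.2001 TPM (-1.30 ± 0.086). Of 20 tested genes of the TNF superfamily, 6 were lower and 4 higher, against 4.92% and 10.6% of all genes. LTB, which encodes lymphotoxin beta, fell from 5.79 ± 1.07 to 0.797 ± 0.3197 TPM (log2 change -1.92 ± 0.19, adjusted p = 0.00121). TNFRSF11B, the decoy receptor osteoprotegerin, fell from 116 ± 3.55 to 72.2 ± 6.08 TPM (adjusted p = 0.00123). The 4 higher members rested on settings, with 1 left without a filter, 0 left when library medians were equalised and 0, 1, 1 and 0 left on leaving out PGN replicate 2 or PGN+RVT replicate 1, 2 or 3. The cytokine TNF was not tested, at 0.24, 0.28 and 0.47 TPM with PGN and 0.07, 0.04 and 0.04 TPM with RVT. TNFRSF12A was not called (441 ± 21.4 and 429 ± 25.7 TPM, adjusted p = 0.664).

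Subunits and feedback inhibitors of NF-kB fell widely. Of 29 tested genes 15 were called lower and 0 higher (limma, 1 at an unadjusted p under 0.05), with a median log2 fold change of -0.43, and 14 of the 15 kept the call in each alternative. Inhibitors held the smallest p-values. TNFAIP3, the ubiquitin-editing enzyme A20, stood at 81.3, 75.8 and 68.6 TPM with PGN and 30.4, 27.01 and 28.5 TPM with RVT (log2 change -1.36 ± 0.078, adjusted p = 0.000153). NFKBIA, which holds NF-kB in the cytosol, stood at 118, 109.9 and 107 TPM with PGN and 56.96, 58.8 and 55.6 TPM with RVT (log2 change -0.95 ± 0.053, adjusted p = 0.000145). In both genes the lowest PGN library was well above the highest PGN+RVT library. ZC3H12A, a ribonuclease that degrades cytokine mRNA, fell from 158 ± 3.13 to 63.8 ± 3.42 TPM (adjusted p = 2.44e-05). TNIP1, a partner of A20, fell from 556 ± 11.9 to 297 ± 10.4 TPM (adjusted p = 3.69e-05). Subunits of the transcription factor had smaller log2 changes: NFKB1 had a log2 fold change of -0.64 ± 0.058, RELB of -0.61 ± 0.089 and NFKB2 of -0.43 ± 0.071, all 3 named after their values were seen. RELA, the most abundant subunit gene here, was not called (114 ± 10.03 and 105 ± 0.687 TPM, adjusted p = 0.282), nor was BIRC2 (adjusted p = 0.225). Of 13 genes of this list that fell and have a promoter in the RefSeq table, 10 held the NF-kB consensus (76.9%, against 8.99% of tested genes), the TNFAIP3 stretch printed above among them. As some genes have several promoter windows, the share over windows was 65.2% against 6.84%.

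Targets of inflammatory signalling outside the lists, chosen after their values were seen or for their loss of TPM, included TNFAIP2, SOD2, ICAM1 and OLR1. TNFAIP2, a gene induced by TNF, was among the 10 called genes with the largest loss of TPM and stood at 682, 661 and 665 TPM with PGN and 215, 212 and 227 TPM with RVT (log2 change -1.62 ± 0.039, adjusted p = 3.22e-06). SOD2, the mitochondrial superoxide dismutase, fell from 88.6 ± 2.19 to 35.8 ± 1.82 TPM. ICAM1, an adhesion molecule for leukocytes, fell from 109 ± 2.33 to 58.8 ± 3.79 TPM. OLR1, a receptor for oxidised LDL, fell from 20.8 ± 1.602 to 3.64 ± 0.252 TPM (log2 change -2.23 ± 0.088). Of the acute-phase and antimicrobial genes 2 of 13 fell and 0 rose (limma, 1 at an unadjusted p under 0.05, also in every alternative run): PTX3, a soluble pattern recognition protein (5.34 ± 0.762 to 0.63 ± 0.183 TPM), and the complement factor gene CFB (25.9 ± 1.28 to 10.7 ± 0.705 TPM). The much more abundant LCN2 (lipocalin 2) and C3 were not called, at 825 ± 11.3 and 839 ± 28.3 TPM and at 449 ± 22.1 and 441 ± 12.9 TPM. PTGS2, the inducible cyclooxygenase, fell from 4.27 ± 0.605 to 1.05 ± 0.0361 TPM (log2 change -1.36 ± 0.14).

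None of the peptidoglycan receptor genes TLR2, NOD1 and NOD2 was called. Of 16 tested sensing and inflammasome genes 0 fell (limma, 1 at an unadjusted p under 0.05) and 3 rose, and the 3 were 1 without a filter, with library medians equalised and without PGN replicate 2 or PGN+RVT replicates 2 or 3. TLR2 stood at 1.16, 1.79 and 1.13 TPM with PGN and 1.14, 1.19 and 1.23 TPM with RVT, and the groups overlapped (adjusted p = 0.7503). NOD1 stood at 5.24, 5.24 and 5.67 TPM with PGN and 5.78, 3.8 and 5.15 TPM with RVT (adjusted p = 0.598), again with overlap. NOD2 stood at 2.78, 2.42 and 2.54 TPM with PGN and 1.76, 1.73 and 1.67 TPM with RVT. Its groups did not overlap but the test was not passed (log2 change -0.40 ± 0.13, adjusted p = 0.0813), and it was called in 1 of its alternatives. GSDMD, the pore-forming effector of pyroptosis, rose from 70.3 ± 2.31 to 94.6 ± 8.07 TPM (adjusted p = 0.00839). PYCARD, the inflammasome adaptor, was higher (log2 change 0.44 ± 0.091), a call kept in 11 of 16 alternatives. RIPK2, the kinase downstream of NOD receptors, was not called (adjusted p = 0.324).

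Ligands of the EGF family and their receptor were mostly lower with RVT. Of 13 tested genes of the ERBB family, its ligands and their sheddases, 6 were lower and 3 higher. EREG (epiregulin) stood at 69.5, 57.3 and 53.5 TPM with PGN and 15.9, 14.8 and 18.1 TPM with RVT (log2 change -1.82 ± 0.11, adjusted p = 0.0002204). EPGN (epigen) fell from 33.1 ± 2.43 to 11.6 ± 0.881 TPM and HBEGF (heparin-binding EGF) from 90.1 ± 7.98 to 51.7 ± 0.5205 TPM. Their receptor gene EGFR stood at 129, 120 and 124 TPM with PGN and 69.7, 61.98 and 74.4 TPM with RVT (log2 change -0.85 ± 0.072, adjusted p = 0.000664). None of these 4 showed overlap between groups. The 3 higher genes (ERBB2, ERBB3 and RHBDF2) were 1 with library medians equalised, after quantile normalization, after removal of the GC and length trend and without PGN replicate 2, PGN+RVT replicate 1 or PGN+RVT replicate 3. The sheddase genes ADAM10 and ADAM17 were not called (adjusted p = 0.895 and 0.541).

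Transcription factors that answer growth and stress signals moved in both directions. The AP-1 subunit gene FOSL1 stood at 396, 439.6 and 396 TPM with PGN and 213, 211 and 192 TPM with RVT (log2 change -0.997 ± 0.0598, adjusted p = 0.000198), with FOSL2 (-0.56 ± 0.0502) and MAFF (-0.57 ± 0.052) also lower. Of 21 AP-1 and ATF genes 7 were lower and 2 higher. The 7 were 4 without a filter on low genes and without PGN replicate 2 or PGN+RVT replicates 1 or 2, and 3 without PGN+RVT replicate 3. EGR1, an early growth response factor, stood at 9.44, 9.68 and 9.77 TPM with PGN and 24.4, 23.2 and 22.03 TPM with RVT (log2 change 1.19 ± 0.067, adjusted p = 0.000153). EGR3 rose from 2.98 ± 0.882 to 7.78 ± 1.32 TPM and NR4A1, an orphan nuclear receptor, from 5.48 ± 0.819 to 13.2 ± 1.07 TPM. In the same list of 19 early response genes, IER3 (log2 change -1.05 ± 0.084) and PHLDA1 (-0.96 ± 0.064) fell, for 4 higher and 6 lower in all. ID2 and ID3, inhibitors of basic helix-loop-helix factors that BMP signals induce, rose, ID2 from 9.78 ± 1.64 to 24.1 ± 2.03 TPM and ID3 from 97.6 ± 3.91 to 148 ± 1.37 TPM. INHBA, which encodes activin A, fell from 39.05 ± 3.34 to 12.1 ± 0.471 TPM and SMAD3, a TGF-beta effector, from 133 ± 2.97 to 83.8 ± 4.03 TPM. Of the 29 TGF-beta and BMP genes 6 were lower and 5 higher, and the 5 were 2 after removal of the GC and length trend and without PGN replicate 2 or PGN+RVT replicate 3, and 3 without PGN+RVT replicates 1 or 2. Of 15 DUSP and Sprouty genes, which restrain MAP kinases, 3 rose and 0 fell (limma, 1 at an unadjusted p under 0.05), and the 3 were 1 without PGN+RVT replicates 2 or 3. SPRY1 was the clearest of them (2.21 ± 0.283 to 4.67 ± 0.526 TPM, adjusted p = 0.00769), and ERRFI1 was not called (adjusted p = 0.308).

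More genes of matrix, adhesion and pericellular proteolysis fell than rose. Of 9 tested genes of the plasminogen activator system 5 fell and 0 rose (limma, 0 at an unadjusted p under 0.05), and the 5 were 3 without PGN replicate 2, PGN+RVT replicate 1 or PGN+RVT replicate 2. PLAU (urokinase) stood at 241, 249 and 229 TPM with PGN and 105, 108 and 107 TPM with RVT (log2 change -1.16 ± 0.044, adjusted p = 2.44e-05). SERPINB2, which encodes a urokinase inhibitor, fell from 167 ± 12.6 to 80.7 ± 3.52 TPM. THBS1 (thrombospondin 1) stood at 731, 765 and 731 TPM with PGN and 362, 334 and 343 TPM with RVT (log2 change -1.10 ± 0.042, adjusted p = 2.44e-05). Of 23 laminin, integrin and hemidesmosome genes 8 fell and 1 rose, of which 6 and 0 in each alternative run. The laminin chain genes LAMA3 (774 ± 34.9 to 614 ± 22.8 TPM) and LAMB3 (770.1 ± 29.2 to 602 ± 14.3 TPM) were among the falls. ITGB6, an integrin subunit of injured epithelium, fell from 77.1 ± 3.53 to 48.9 ± 3.24 TPM. Of 21 collagen and cross-linking genes 7 fell and 1 rose, with COL4A1 and COL4A2, the paired genes of basement membrane collagen IV, at log2 fold changes of -0.74 ± 0.053 and -0.48 ± 0.048. The 1 rise was lost without PGN replicate 2 or any 1 PGN+RVT library. MMP2 fell from 45.8 ± 5.75 to 23.4 ± 1.25 TPM and MMP14, which activates it, rose from 49.4 ± 1.55 to 63.6 ± 2.77 TPM. PLEC and ITGB4 were not called (adjusted p = 0.0823 and 0.238).

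More epithelial junction genes and kallikreins rose than fell, and more cornified envelope genes fell than rose. CLDN4, a tight junction claudin, stood at 272, 303 and 322 TPM with PGN and 474, 496 and 511 TPM with RVT (log2 change 0.72 ± 0.065, adjusted p = 0.000832). CLDN1, another claudin, went the other way, from 196 ± 8.86 to 117 ± 8.06 TPM (log2 change -0.74 ± 0.062). Of 20 tight and gap junction genes 7 were higher and 2 lower, and the 7 were 4 without a filter and without PGN replicate 2 or PGN+RVT replicate 2, and 3 without PGN+RVT replicate 1. Of 17 cadherin and desmosome genes 3 were higher and 2 lower, against 10.6% and 4.92% of all genes. In each alternative 2 of the 3 and both of the lower genes were called, and the list median was a log2 fold change of 0.0014. Among the rises, the E-cadherin gene CDH1 went from 281 ± 5.64 to 357 ± 16.7 TPM and JUP (plakoglobin) from 374 ± 14.3 to 464 ± 8.89 TPM. SNAI2, a repressor of E-cadherin transcription chosen after its values were seen, fell from 5.35 ± 0.356 to 1.89 ± 0.114 TPM. A part of SNAI2 in the level of CDH1 was not tested. Of 16 kallikreins and protease inhibitors 6 rose and 0 fell (limma, 1 at an unadjusted p under 0.05), 5 of them in each alternative, with KLK7, a protease that sheds corneocytes, at 29.7, 28.6 and 31.3 TPM with PGN and 51.2, 52.5 and 57.8 TPM with RVT (log2 change 0.83 ± 0.066). Of 15 cornified envelope genes 6 fell and 2 rose, the 6 in every alternative run. FLG (filaggrin) stood at 6.12, 6.44 and 6.55 TPM with PGN and 1.03, 0.95 and 1.13 TPM with RVT (log2 change -1.86 ± 0.11, adjusted p = 0.000215). The small proline-rich genes SPRR1B (156 ± 1.46 to 84.2 ± 6.95 TPM), SPRR3 (26.9 ± 1.81 to 14.6 ± 1.08 TPM) and SPRR2A (26.99 ± 4.91 to 8.48 ± 1.495 TPM) fell, and SPRR2A has close paralogs among which reads could be split. Of 9 clade B serpins 4 fell and 0 rose (limma, 1 at an unadjusted p under 0.05), with SERPINB3 at a log2 fold change of -0.93 ± 0.13 and its close paralog SERPINB4 at -1.17 ± 0.18. The calprotectin gene S100A8 fell from 17.1 ± 3.93 to 7.07 ± 0.274 TPM, while S100P rose from 645 ± 48.01 to 858 ± 34.9 TPM.

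Of 19 keratins, among the most abundant transcripts, 4 were higher and 2 lower, and the 4 were 2 under 10 of the alternatives, among them library medians equalised and leaving out PGN replicate 1 or 3 or any 1 PGN+RVT library. KRT81 rose from 1374 ± 40.9 to 1937 ± 95.1 TPM (log2 change 0.49 ± 0.043), though its close paralog KRT86 could take some of its reads. KRT6B fell from 13.04 ± 0.3503 to 6.08 ± 0.0755 TPM (-0.99 ± 0.071) and KRT5 from 440.4 ± 11 to 357 ± 3.71 TPM (-0.30 ± 0.034). KRT8 and KRT18, the keratin pair of simple epithelium, were not called (2934 ± 76.4 and 3104 ± 53.4 TPM, and 2344 ± 93.99 and 2439.5 ± 42.8 TPM). The largest gains of TPM were those of the metallothionein gene MT2A (5713 ± 112 to 7091 ± 365 TPM, call kept in 15 of 16 alternatives), KRT81, the ubiquitin gene UBB (1359 ± 109 to 1809 ± 38.5 TPM) and the ferritin light chain gene FTL (775 ± 21.8 to 1054 ± 26.5 TPM). FTH1, the ferritin heavy chain, went the other way, at 5822, 6175 and 5212 TPM with PGN and 4958, 4090.2 and 4111 TPM with RVT (adjusted p = 0.0267). The groups did not overlap for FTH1, and 11 of 16 alternatives kept its call.

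Enzymes of cholesterol synthesis rose nearly throughout the pathway. Of 23 tested genes 20 rose and 0 fell (limma, 0 at an unadjusted p under 0.05, against 10.6% and 4.92% of all genes), with a median log2 fold change of 0.58, and 18 rose in each alternative. Early in the pathway, HMGCS1 (HMG-CoA synthase) stood at 114, 109 and 113 TPM with PGN and 195, 192 and 208 TPM with RVT (log2 change 0.82 ± 0.047, adjusted p = 0.000153). Its groups did not overlap. FDFT1, which makes squalene, rose from 148 ± 5.06 to 218 ± 5.59 TPM, ACAT2 from 81.7 ± 1.005 to 123 ± 4.48 TPM and DHCR7, at the end of the pathway, from 102 ± 8.08 to 177 ± 6.09 TPM. The largest rises of the list, TM7SF2 (1.01 ± 0.093) and MSMO1 (0.96 ± 0.079), both named after their values were seen, belong to the steps after lanosterol. PMVK, GGPS1 and LBR were not called; LBR, which can carry out the same reduction as TM7SF2, stood at 47.4 ± 8.21 TPM with PGN and 41.2 ± 3.92 TPM with RVT (adjusted p = 0.352).

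**Figure D3:**
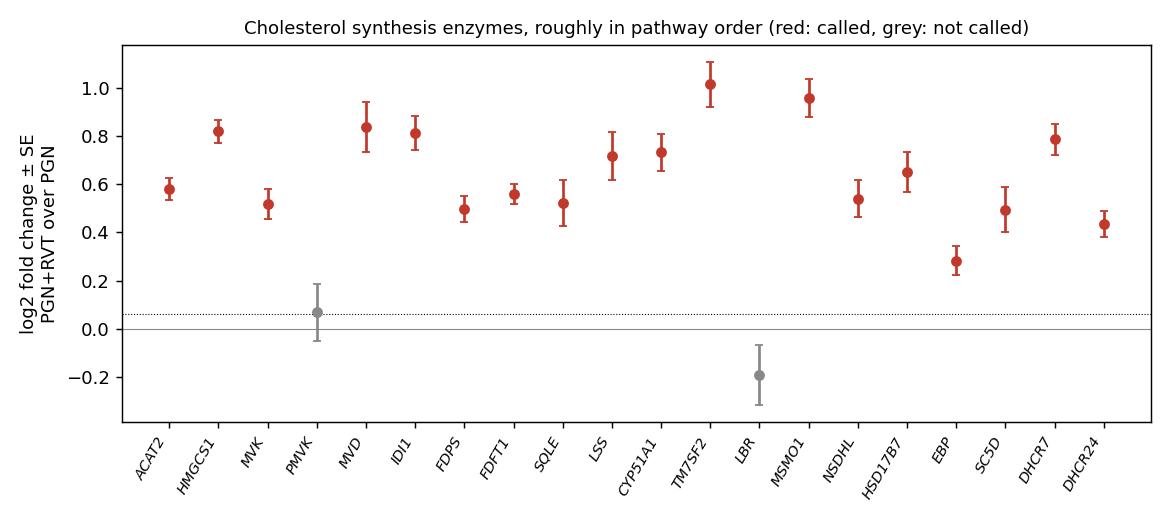
Log2 fold change with its standard error, PGN with RVT over PGN, for 20 enzymes of cholesterol synthesis placed roughly in the order of the pathway. Red points are called and grey points are not. The rises run from 0.28 (EBP) to 1.01 (TM7SF2), with the call of EBP kept in 12 of 16 alternatives, and PMVK and LBR are the 2 genes drawn that were not called.

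Regulators of sterol and fatty acid synthesis were also more often higher than lower. INSIG1, which retains the SREBP activators in the endoplasmic reticulum when sterols are plentiful, stood at 37.2, 34.4 and 29.8 TPM with PGN and 60.01, 60.4 and 64.4 TPM with RVT (log2 change 0.85 ± 0.084, adjusted p = 0.00124). Of 21 SREBP regulators and sterol genes 10 were higher and 1 lower; 5 were higher without a filter, and 4, 6, 4, 5 and 4 without PGN replicates 2 and 3 and PGN+RVT replicates 1, 2 and 3. Of 21 fatty acid synthesis genes 9 rose and 0 fell (limma, 0 at an unadjusted p under 0.05), 6 of them in each alternative. FADS2, the desaturase that makes the sapienic acid typical of human sebum, stood at 54.3, 51.9 and 63.8 TPM with PGN and 115, 116 and 128 TPM with RVT (log2 change 1.07 ± 0.084, adjusted p = 0.000499). FASN (fatty acid synthase) rose from 77.4 ± 9.47 to 123 ± 2.01 TPM, ACLY from 115 ± 3.5 to 156 ± 6.203 TPM and ACSS2 from 62.9 ± 1.97 to 91.9 ± 2.45 TPM, the last 2 being enzymes that supply acetyl-CoA. ELOVL1 was not called (adjusted p = 0.0603). Of 23 triglyceride and droplet genes 10 were higher and 1 lower, led by BSCL2 (seipin, 135 ± 9.44 to 194 ± 5.71 TPM), LPIN1 (log2 change 0.57 ± 0.073) and the acyltransferase gene DGAT2 (0.39 ± 0.062), and the 10 were 6 without PGN replicate 2 and 5 without PGN+RVT replicate 1, while the 1 was lost on leaving out any 1 library. G0S2, an inhibitor of triglyceride lipolysis chosen after its values were seen, fell from 534 ± 38.2 to 244 ± 22.9 TPM.

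PPARG, the nuclear receptor of sebocyte and adipocyte lipid programmes, went against these rises. It stood at 37.8, 39.2 and 39.2 TPM with PGN and 22.1, 23.6 and 23.7 TPM with RVT, with no overlap (log2 change -0.72 ± 0.056, adjusted p = 0.000473). SOX9, a transcription factor of the sebaceous lineage, rose from 22.4 ± 1.32 to 39.3 ± 0.897 TPM. Of 15 tested genes of AMPK and its upstream kinases 1 was lower, close to the 4.92% of all genes. Called higher were 0 (limma, 3 at an unadjusted p under 0.05), against 10.6% of all genes. PRKAA1, the main catalytic subunit gene, stood at 87.5, 71.4 and 72.5 TPM with PGN and 88.4, 78.7 and 94.9 TPM with RVT, and the groups overlapped (adjusted p = 0.266). PRKAA2 stood at 1.15, 0.96 and 1.16 TPM with PGN and 1.19, 1.06 and 1.14 TPM with RVT (adjusted p = 0.926) and SIRT1, a deacetylase often discussed with resveratrol, at 6.43, 5.53 and 5.64 TPM with PGN and 6.95, 6.32 and 8.18 TPM with RVT (adjusted p = 0.196). The 1 lower gene was CAB39, a scaffold of the AMPK-activating kinase LKB1, which fell from 79.5 ± 6.801 to 52.2 ± 3.34 TPM (adjusted p = 0.00355). RNA levels do not measure AMPK activity. SPTSSB, a small subunit of the enzyme that starts sphingolipid synthesis, had the largest rise of a protein-coding gene, from 0.8, 1.97 and 1.21 TPM with PGN to 5.95, 4.46 and 9.34 TPM with RVT (log2 change 1.69 ± 0.27, adjusted p = 0.00842). UGCG, which makes glucosylceramide, fell from 80.1 ± 7.73 to 45.8 ± 2.02 TPM.

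Genes of DNA replication and of mitosis moved in opposite directions. Of 40 replication and S phase genes 17 fell and 0 rose (limma, 1 at an unadjusted p under 0.05), with a median log2 fold change of -0.20, and of 40 mitosis and G2/M genes 22 rose and 0 fell (limma, 0 at an unadjusted p under 0.05), with a median of 0.33. In each alternative run 12 of the 17 and 17 of the 22 were called. MCM5, a subunit of the replicative helicase, stood at 112, 120.3 and 122 TPM with PGN and 70.3, 71.3 and 67.6 TPM with RVT (log2 change -0.75 ± 0.0503, adjusted p = 0.000272). MCM6, of the same helicase, fell from 78.2 ± 3.12 to 44.9 ± 1.55 TPM and PCNA, the polymerase clamp, from 387 ± 13.6 to 269 ± 3.83 TPM. KIF20A, a kinesin of cytokinesis, stood at 35.02, 34.96 and 35.3 TPM with PGN and 53.2, 55.1 and 55.3 TPM with RVT (log2 change 0.62 ± 0.047, adjusted p = 0.000455). PLK1, a kinase that drives mitosis, rose from 129.9 ± 6.23 to 185 ± 5.06 TPM and the cyclin gene CCNB1 from 273 ± 15.7 to 375 ± 8.03 TPM. For these 6 genes the groups did not overlap. TK1 and FEN1 of the first list and CKS1B of the second were not called (adjusted p = 0.111, 0.0522 and 0.0898). The median over the 40 replication genes, taken relative to the mean of the PGN libraries, was -0.22, -0.23 and -0.20 in PGN+RVT replicates 1, 2 and 3, and over the 40 mitosis genes it was 0.34, 0.30 and 0.33. RNA levels do not give the number of cells in a phase, and the part of a change in cell cycle phases was not tested.

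**Figure D4:**
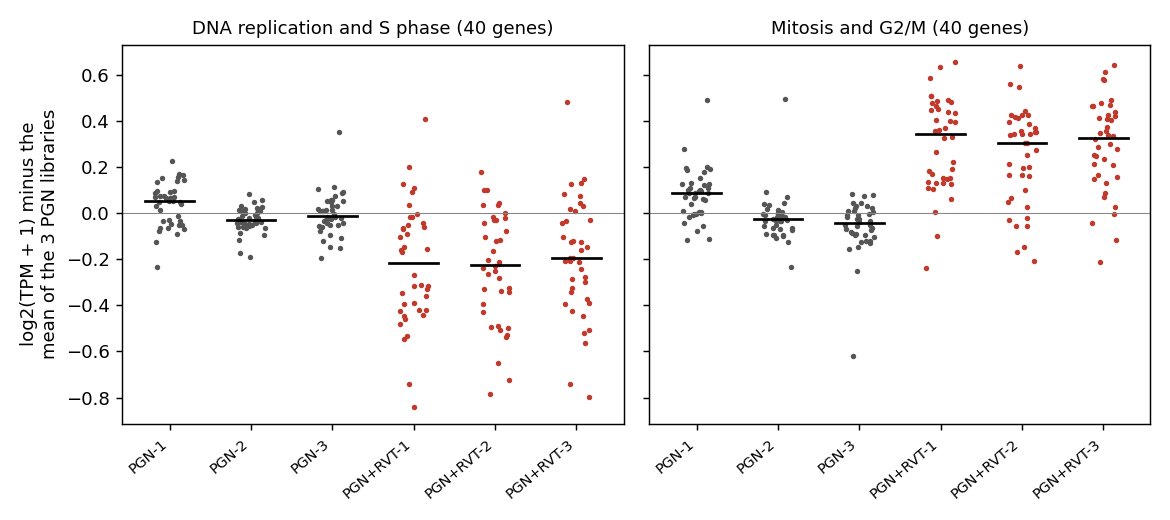
Expression of 40 DNA replication genes (left) and 40 mitosis genes (right) in each library, in log2(TPM + 1) minus the gene's mean over the 3 PGN libraries. Each point is a gene and bars are medians. All 3 PGN+RVT libraries have medians between -0.23 and -0.20 on the left and between 0.30 and 0.34 on the right.

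The promoters of these gene sets differ in letters. Only called members of a list were searched as a set, here and for the NF-kB consensus above. Uncalled members were not, so whether matches go with the change or with list membership was not tested. Of 18 mitosis genes that rose and have a promoter in the RefSeq table, 13 held the cell cycle homology region TTTGAA on either strand (72.2%), against 13.3% of tested genes, and of 13 replication genes that fell 0 held it. The box CCAAT was found in 16 of the 18 mitosis genes (88.9%), 10 of the 13 replication genes (76.9%) and 14 of 15 cholesterol genes (93.3%), against 43.0% of tested genes. A sterol element searched as TCACNCCAC was in 0 of the 15 cholesterol genes and in 1.46% of tested genes, which says only that these letters are not in the windows. Printed below, from RefSeq on GRCh38.p14, are the stretches of PLK1 (chr16:23678739-23678938, capitals for TTTGAA), CCNB1 (chr5:69167000-69167199), CCNB2 (chr15:59104996-59105195) and the cholesterol gene MSMO1 (chr4:165327519-165327718), the last 3 with capitals for CCAAT. All 4 are on the plus strand, from 150 bases before to 50 after the start, and they are shown for the spacing of the copies.
PLK1: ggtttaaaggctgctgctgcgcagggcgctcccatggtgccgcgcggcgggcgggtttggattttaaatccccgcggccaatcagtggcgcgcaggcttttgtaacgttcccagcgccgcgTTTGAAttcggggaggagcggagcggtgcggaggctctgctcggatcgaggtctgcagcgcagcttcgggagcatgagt
CCNB1: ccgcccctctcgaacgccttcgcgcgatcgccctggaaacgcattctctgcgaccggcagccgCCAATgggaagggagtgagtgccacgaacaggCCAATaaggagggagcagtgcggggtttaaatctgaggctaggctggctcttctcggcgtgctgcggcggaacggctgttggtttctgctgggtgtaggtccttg
CCNB2: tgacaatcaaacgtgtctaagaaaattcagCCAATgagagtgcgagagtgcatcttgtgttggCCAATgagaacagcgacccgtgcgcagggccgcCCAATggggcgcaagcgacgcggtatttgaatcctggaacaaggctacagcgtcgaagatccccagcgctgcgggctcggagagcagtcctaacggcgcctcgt
MSMO1: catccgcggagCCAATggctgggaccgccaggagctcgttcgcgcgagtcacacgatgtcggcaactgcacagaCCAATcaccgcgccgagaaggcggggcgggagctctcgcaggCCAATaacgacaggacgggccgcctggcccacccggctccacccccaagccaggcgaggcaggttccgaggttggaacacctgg

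The 2 copies of CCNB1 began 87 and 55 bases before the start and the 3 printed copies of CCNB2 120, 87 and 54 bases before it, while the 3 printed of the 4 MSMO1 copies in its 300-base window began 139, 76 and 34 bases before it. CCNB2, named for its promoter after its values were seen, rose from 104 ± 5.88 to 140.1 ± 4.07 TPM and MSMO1 from 44.1 ± 4.63 to 86.2 ± 3.29 TPM. These matches describe sequence and do not identify a bound factor.

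Interferon-stimulated and antigen presentation genes were more often higher than lower. Of 37 interferon-stimulated genes 10 were higher and 2 lower, against 10.6% and 4.92% of all genes, and the 10 were 6 with library medians equalised and without PGN replicate 2 or PGN+RVT replicate 3. ISG15, a ubiquitin-like modifier, stood at 185, 182 and 188 TPM with PGN and 239, 244 and 235 TPM with RVT (log2 change 0.37 ± 0.036, adjusted p = 0.00121). IFIT1, which binds viral RNA, rose from 4.19 ± 0.194 to 7.29 ± 0.259 TPM. IRF1 (log2 change -0.69 ± 0.061) and GBP1 (-0.60 ± 0.083) were the 2 of this list that fell. The list leaves out CXCL10 and CXCL11, which were counted above among the chemokines and fell. Of 22 antigen presentation genes 6 were higher and 1 lower, with HLA-E from 60.8 ± 1.93 to 83.9 ± 1.98 TPM, and the 6 were 3 without a filter, with library medians equalised and without PGN+RVT replicates 1 or 2. HLA class I genes are similar to each other and reads could be split among them.

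Genes of stress programmes went in both directions. Of 23 tested ATF4 target and amino acid genes 6 were lower and 2 higher, against 4.92% and 10.6% of all genes, and the 2 were 1 or 0 on leaving out any 1 library other than PGN replicate 3. SLC7A5, a transporter of large neutral amino acids, stood at 906, 953 and 957 TPM with PGN and 519, 513 and 507 TPM with RVT (log2 change -0.87 ± 0.034, adjusted p = 2.44e-05). Its partner SLC3A2 fell from 463 ± 18.8 to 363 ± 16.3 TPM and DDIT4, an inhibitor of mTORC1, from 389 ± 13.5 to 272 ± 6.38 TPM. Of 21 NRF2 genes 9 were higher and 4 lower, among the latter NFE2L2, which encodes NRF2 itself, at 103, 93.6 and 89.8 TPM with PGN and 60.9, 55.1 and 62.6 TPM with RVT. The 9 were between 4 and 5 under 10 of the alternatives, among them library medians equalised and leaving out PGN replicate 2 or any 1 PGN+RVT library. Of 33 HIF and glycolysis genes 4 were higher, close to the 10.6% of all genes, and 6 lower, against 4.92%. CITED2, a negative regulator of HIF-1, stood at 8.5, 10.6 and 9.01 TPM with PGN and 27.4, 29.3 and 28.8 TPM with RVT (log2 change 1.51 ± 0.089, adjusted p = 0.000173). VEGFA fell from 55.3 ± 1.46 to 33.9 ± 1.98 TPM and LDHA (lactate dehydrogenase) from 1100.2 ± 89.2 to 787 ± 20.6 TPM. The 6 lower genes were 12 after removal of the GC and length trend, and the 4 higher genes were 2 without PGN replicate 2 or any 1 PGN+RVT library. Of 27 p53 target and apoptosis genes 3 were higher and 5 lower, against 10.6% and 4.92% of all genes, with a median log2 fold change of 0.088. The 3 were 0 with library medians equalised and without PGN replicate 3 or any 1 PGN+RVT library. In this list BBC3, the p53 target PUMA, fell from 18.7 ± 3.22 to 5.897 ± 0.8301 TPM. Of 34 autophagy and lysosome genes 9 rose and 1 fell, 6 and 0 of them in each alternative, with WIPI1 from 12.9 ± 1.02 to 23.98 ± 1.19 TPM and NEU1 from 17.9 ± 1.52 to 30.9 ± 1.09 TPM.

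Abundant housekeeping transcripts shifted slightly. Ribosomal protein genes took 16.2% ± 0.158 of TPM with PGN and 15.4% ± 0.326 with RVT, and of 78 genes 23 were lower and 0 higher (limma, 0 at an unadjusted p under 0.05), with a median log2 fold change of -0.074. The 23 fell to 0 when the libraries were rescaled without ribosomal and mitochondrial genes, to 2 without a filter, to 9 after quantile normalization and to 7, 4, 10 and 6 when PGN replicate 2 or PGN+RVT replicate 1, 2 or 3 was left out. Genes of the mitochondrial genome took 10.8% ± 0.214 and 9.93% ± 0.505, and 4 of 13 were lower (0 on the same rescaling, and 2 without PGN replicate 2 or PGN+RVT replicates 2 or 3), among them MT-CO3 (9227 ± 178 to 7626 ± 247 TPM, call kept in 13 of 15 alternatives). Of 32 proteasome subunit genes 14 rose and 0 fell (limma, 0 at an unadjusted p under 0.05), with PSMB4 from 506 ± 15.9 to 629 ± 18.1 TPM. The 14 were 4 with library medians equalised, 7 after removal of the GC and length trend and 6, 5, 6 and 6 when PGN replicate 2 or PGN+RVT replicate 1, 2 or 3 was left out.

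EPHB3, QPRT, PRR15L and THEMIS2 were also among the largest rises of protein-coding genes. EPHB3, an ephrin receptor, stood at 5.05, 4.38 and 7.74 TPM with PGN and 13.9, 12.8 and 14.8 TPM with RVT (log2 change 1.17 ± 0.18, adjusted p = 0.00622). QPRT, an enzyme of NAD synthesis from tryptophan, rose from 29.6 ± 2.21 to 65.7 ± 3.53 TPM (log2 change 1.13 ± 0.072). PRR15L rose from 3.63 ± 0.576 to 11.3 ± 0.699 TPM and THEMIS2, a signalling scaffold best known in immune cells, from 13.1 ± 1.92 to 28.6 ± 1.36 TPM. The rule that picked these 4 asks for groups that do not overlap. Most called genes, 1796 of 2277, lie outside the gene lists, and of the 83 genes at least 2-fold lower and the 28 at least 2-fold higher, 37 and 9 are list members. Among falls outside the lists, chosen after their values were seen, IGFBP3, which binds insulin-like growth factors, went from 595 ± 43.8 to 263 ± 5.48 TPM (log2 change -1.17 ± 0.056) and STC2, a secreted glycoprotein, from 133 ± 3.13 to 45.2 ± 1.605 TPM (-1.54 ± 0.048). NEDD9, a focal adhesion scaffold, fell from 20.9 ± 0.135 to 5.92 ± 1.002 TPM and THBD (thrombomodulin) from 20.5 ± 1.47 to 9.48 ± 0.629 TPM.

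A few non-coding genes had the largest fitted changes. The snoRNA gene SNORD15B (chromosome 11, 75404421 to 75404566) stood at 41.8, 51.9 and 57.4 TPM with PGN and was listed at 0 in the 3 PGN+RVT libraries. SNORA71 (chromosome 20, 38421647 to 38421774) was listed at 0 in the 3 PGN libraries and at 42.8, 14.7 and 86.2 TPM with RVT. A listed 0 can be a failed estimate, and no fold is given. The pseudogenes AC006262.4 and AL031281.1 were listed at 0 with PGN and at 2.58, 6.79 and 7.47 TPM and 0.69, 12.6 and 6.54 TPM with RVT, the second with a call kept in 5 of 15 alternatives. The long non-coding RNA LUCAT1 stood at 11.2, 12.2 and 8.76 TPM with PGN and 1.81, 2.35 and 2.29 TPM with RVT (log2 change -1.89 ± 0.14, adjusted p = 0.000453). MIR3142HG, the host transcript of MIR146A, fell from 9.19 ± 0.823 to 2.03 ± 0.465 TPM (log2 change -1.76 ± 0.14). Both long RNAs were picked by the rule that asks for groups that do not overlap.

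Resveratrol's effect under PGN was then set against its effect under LA, by testing the difference of the 2 effects in a fit of all 12 libraries. Of 15177 genes 1173 had a higher effect under PGN (7.73%) and 1067 a lower one (7.03%). For chemokines the effect was lower under PGN in 8 of 11 genes and higher in 0 (limma, 1 at an unadjusted p under 0.05, given in the same way below), and for NF-kB subunits and inhibitors lower in 12 of 29 and higher in 0 (0). For cholesterol enzymes it was higher under PGN in 19 of 23 and lower in 0 (0), for interferon-stimulated genes higher in 15 of 38 and lower in 0 (0), and for mitosis genes higher in 14 of 40 and lower in 1. For replication genes 3 of 40 were lower, a share close to that of all genes, and 1 higher, a smaller share than that of all genes. IL1B had a log2 fold change with RVT of -3.27 ± 0.093 under PGN and -0.16 ± 0.093 under LA. CXCL1 had -2.89 ± 0.086 under PGN and 0.43 ± 0.086 under LA, and CITED2 1.51 ± 0.11 and -0.01 ± 0.11. EGR1 rose under both stimuli, by 1.19 ± 0.058 under PGN and by 1.52 ± 0.058 under LA. CYP1B1 fell under both, with -4.49 ± 0.13 and -2.87 ± 0.13. Cytosolic heat shock chaperones, of which 3 rose and 1 fell among 23 under PGN (the 1 lost on leaving out any 1 library), had a lower effect under PGN in 14 of 23 and a higher one in 0 (1). The PGN and LA tables were normalized separately and PGN and LA libraries share no control, so levels are not compared between stimuli, and each effect is a difference within its own table.

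**Figure D5:**
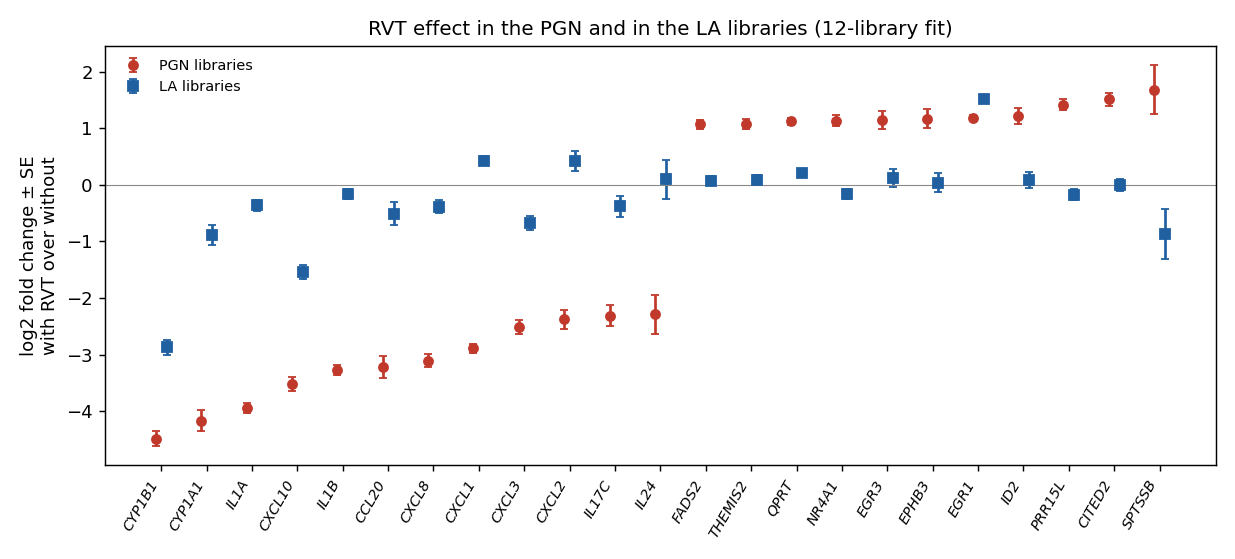
Log2 fold change with RVT over without, with its standard error, in the PGN libraries (red circles) and in the LA libraries (blue squares), from the fit of 12 libraries, for the 23 protein-coding genes of the plot of largest changes. The LA points lie nearer 0 than the PGN points for 22 of the 23 genes, and EGR1 is the exception. The genes were picked for large changes under PGN, which favours this outcome. With LA alone CCL20, IL17C, IL24 and CYP1A1 averaged 0.5, 0.343, 0.427 and 1.36 TPM, levels at which log2(TPM + 1) leaves little room for a fall.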

How the data were processed

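RNA sequencing of 12 SZ95 libraries was deposited as 2 tables of TPM (PGN and LA libraries), scaled by the authors; HISAT2 2.1.0, RSEM 1.3.1 and DESeq2 1.24.0 are named in the submitters' processing notes, without roles. The annotation release and strandedness are not given in the sources used here, and read depth is unknown. The labels call replicates biological but name no separate cultures, so p-values reflect only how these libraries spread, which may be technical. Values were tested as log2(TPM + 1) for genes averaging at least 1 TPM, with limma 3.58.1 (R 4.3.3, trended variances, no covariate), first on the 6 PGN libraries and, for the difference of effects, on all 12. Adjusted p-values are Benjamini-Hochberg over all genes tested. The script was tested on simulated data with 200 changed genes. Gene types and positions are from GENCODE 29 (GRCh38). Promoters are from RefSeq (GRCh38.p14), which held 10285 of 14601 tested symbols.

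The members and lists were chosen with earlier results of these data known. Genes were named by rule: the 12 largest changes each way among called protein-coding genes reaching 5 TPM with groups that do not overlap, the 3 largest each way of other types, the 10 largest TPM gains and losses, up to 4 members of a list by smallest p with up to 2 uncalled members by TPM, and 15 fixed genes. ERBB2, ERBB3, RHBDF2, GGPS1, CYP1B1-AS1 and EBP fall outside this rule and were named after their values were seen. Some genes that the rule picks are not reported here. Alternatives changed the pseudocount, filter, scaling, GC and length trend, variance fit, replicate block and left-out library.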

Additional observations from a re-analysis of the deposited data

Results flagged for a closer look

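The effect of RVT differed between PGN and LA cells for each of the 23 protein-coding genes plotted with the largest changes under PGN (limma on 12 libraries, a test of the difference itself, adjusted p under 0.05 over 15177 genes). These genes were picked for their change under PGN, which enters the difference, so the sizes are a description. Values are the log2 change with RVT under PGN minus that under LA, and 14.8% of all genes passed the same test.

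Among cytokines and chemokines the differences were -3.583 for IL1A, -3.118 for IL1B, -3.324 for CXCL1, -2.8 for CXCL2, -1.84 for CXCL3, -2.724 for CXCL8, -1.986 for CXCL10, -2.714 for CCL20, -1.936 for IL17C and -2.392 for IL24. CXCL1 and CXCL2 had changes of 0.43 ± 0.086 and 0.42 ± 0.17 under LA, opposite in sign to those under PGN. The cytochrome genes CYP1A1 and CYP1B1 differed by -3.284 and -1.618. Several of these genes had few TPM under LA. Mean levels with LA, and with LA and RVT, were 0.5 and 0.053 TPM for CCL20 and 0.343 and 0.03 TPM for IL17C. They were 0.427 and 0.537 TPM for IL24, 1.36 and 0.277 TPM for CYP1A1 and 3.88 and 0.69 TPM for CXCL10. On log2(TPM + 1) changes at such levels are understated, so the size of their change under LA is uncertain.

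Among rises under PGN, the differences were 2.553 for SPTSSB, 1.584 for PRR15L, 1.517 for CITED2, 1.134 for ID2, 1.129 for EPHB3, 1.036 for EGR3, 1.295 for NR4A1, 0.9134 for QPRT, 0.981 for THEMIS2 and 0.9948 for FADS2. SPTSSB had a change of -0.87 ± 0.44 under LA, opposite in sign to that under PGN. EGR1 differed by -0.3389, since its rise under LA (1.52 ± 0.058) was larger than that under PGN (1.19 ± 0.058).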

How the results depend on the processing

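The RVT effect under PGN counted 2277 genes. Without a filter on low genes 1384 were called, and leaving out 1 library at a time gave 1095 to 1861. Other settings kept the count within 1.5 times. Of called genes 45.5% were higher with library medians equalised, 50.9% after quantile normalization, 48.2% after removal of a GC and length trend and 60.1% rescaled without ribosomal and mitochondrial genes, against 68.4% as deposited; the cause was not tested. The difference of RVT effects between PGN and LA counted 2240 genes and between 1695 and 2250 under its alternatives. Of the called genes the text names, 160 of 171 kept the call in every alternative that tested them, and 0 of them changed direction, while the sign of some genes that were not called, among them LCN2 and ADAM10, changed with the setting. Counts of 5 or fewer called genes in a list often moved by 1 to 3 genes. Replicate numbers are shared between groups, but deviations of same-numbered libraries correlated at 0.0324, 0.0407 and 0.0081, so the numbers were not taken to pair samples. Each library correlated best with its own number except PGN+RVT replicate 3, which correlated best with PGN replicate 1 (0.0164). With the replicate block 1574 genes were called for the RVT effect under PGN and 1730 for the difference of effects. Read depth is unknown, and 3 libraries a group limit the precision of each value. Count-based tests could not be run on TPM.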

Other observations

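Genes of WNT and retinoid signalling went in both directions. Of 24 WNT pathway genes 4 rose and 4 fell, against 10.6% and 4.92% of all genes, and the 4 rises were 2 without PGN replicates 1 or 2 or PGN+RVT replicate 2. DKK1, a secreted WNT antagonist, stood at 92.2, 71.7 and 81.4 TPM with PGN and 135, 135 and 129 TPM with RVT (log2 change 0.70 ± 0.087, adjusted p = 0.00307). The ligand genes WNT5A (4.37 ± 0.608 to 1.79 ± 0.387 TPM), WNT7B (28.98 ± 1.23 to 20.5 ± 1.702 TPM) and WNT10A (16.9 ± 0.814 to 11.9 ± 0.692 TPM) fell. Of 27 retinoid and steroid metabolism genes 6 fell, against 4.92% of all genes, and 2 rose, a smaller share than the 10.6% of all genes, with 0 rises without a filter on low genes or without any 1 PGN+RVT library. RDH10, which starts the synthesis of retinoic acid from retinol, fell from 14 ± 0.846 to 7.83 ± 0.146 TPM, and ALDH1A3, which completes it, from 996 ± 34.1 to 830.5 ± 39.9 TPM (log2 change -0.26 ± 0.045). NR3C1, the glucocorticoid receptor gene, fell from 34.3 ± 3.55 to 22.3 ± 0.746 TPM (adjusted p = 0.00436).

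Among 13 cytokine mRNA decay factors, which shorten the life of inflammatory transcripts, 2 fell and 1 rose, the latter a smaller share than the 10.6% of all genes, and the 2 were 1 without PGN replicate 2 or PGN+RVT replicates 2 or 3. The related genes ZFP36L1 and ZFP36L2 went opposite ways, ZFP36L1 from 48.9 ± 0.405 to 28.9 ± 0.121 TPM (log2 change -0.74 ± 0.047) and ZFP36L2 from 46.6 ± 1.897 to 59.4 ± 2.53 TPM (0.34 ± 0.057). CFTR, the epithelial chloride channel gene, rose from 16.8 ± 1.105 to 25.9 ± 0.773 TPM (log2 change 0.60 ± 0.068, adjusted p = 0.00209) and PER1, a clock gene that glucocorticoids and cyclic AMP also induce, from 8.54 ± 0.41 to 13.8 ± 0.593 TPM (0.64 ± 0.074). SDC4, a heparan sulfate proteoglycan, fell from 974 ± 40.1 to 682 ± 3.69 TPM. These named genes kept their calls in every alternative that tested them.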
